A study of Mus musculus with 4 samples.

Results

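The Ly6 family surface proteins were taken as the rows of the 4 deposited count tables whose symbol was Ly6c2, Ly6c1, Ly6a, Ly6e, Ly6g, Ly6i or Ly6d, which gave 7 genes of the 31017 in each table. The libraries came from monocytes isolated by FACS from bone marrow of wild-type C57BL/6 mice. There were 2 libraries from aged mice (18 months) and 2 from young mice (3 months). All libraries carry atherosclerosis as a disease tag in the labels, but plaque status is not stated, nor whether the libraries of an age came from separate mice, nor which surface markers the sort used. The series belongs to work on bone marrow age and the clonality of smooth muscle-derived plaque cells, and the comparison made here was aged against young.

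Ly6 proteins are small, cysteine-rich proteins that most often sit on the outer face of the cell membrane, held by a glycosylphosphatidylinositol (GPI) lipid anchor. In mice their genes lie side by side in a cluster that grew by duplication, and several serve as antibody targets that define blood cell types. Ly6C, the product of Ly6c2 and Ly6c1, separates classical from patrolling monocytes, Ly6G marks neutrophils, and Ly6A, better known as Sca-1, marks haematopoietic stem cells. Interferons are known to induce several members, among them Ly6a and Ly6e.

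All 7 genes lay on chromosome 15 within 397 kb, from 74762056 to 75159126 on GRCm38 (mm10). Ly6d (74762056 to 74763620), Ly6i (74979534 to 74983430), Ly6a (74994877 to 74998031), Ly6c1 (75044018 to 75048830) and Ly6c2 (75108158 to 75111970) were on the minus strand. Ly6e (74955051 to 74959905) and Ly6g (75155240 to 75159126) were on the plus strand. In GENCODE M21 none of the 7 shared exons with a gene on the opposite strand. The coding sequences of Ly6c2 and Ly6c1 were the most alike, with 384 of 393 aligned bases identical. Coding identity was 86.3% between Ly6a and Ly6i and 76.9% between Ly6c2 and Ly6g, and at most 46.0% between Ly6e or Ly6d and any other member.

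The first 120 coding bases of Ly6c2 and Ly6c1 are shown because they hold 6 of the 9 coding differences between them, and a read can be assigned to one of the pair only where, within this stretch, it crosses such a base. Capitals mark the bases that differ, and the sequences are those of the GENCODE M21 transcripts.
Ly6c2: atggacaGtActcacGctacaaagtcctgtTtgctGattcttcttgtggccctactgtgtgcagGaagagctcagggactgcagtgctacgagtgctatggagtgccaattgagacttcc
Ly6c1: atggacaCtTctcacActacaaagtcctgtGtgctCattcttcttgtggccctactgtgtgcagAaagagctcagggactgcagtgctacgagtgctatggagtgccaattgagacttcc

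The longest stretch of coding sequence without a difference between Ly6c2 and Ly6c1 was 188 bases. Of all 50-base stretches of the longest Ly6c2 coding transcript, 32.6% also occurred in a transcript of Ly6c1, and 31.7% of those of Ly6c1 occurred in Ly6c2. At 100 bases, the shares found in any other gene were 15.8% for Ly6c2 and 15.3% for Ly6c1. For Ly6a, 10.04% of the 50-base stretches occurred in some other gene, for Ly6i 4.97% and for Ly6g 0.448%, and for Ly6e and Ly6d the share was 0. Neither read length nor the treatment of reads with several matches is known here, so the split of counts between Ly6c2 and Ly6c1 is uncertain.

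**Figure D1:**
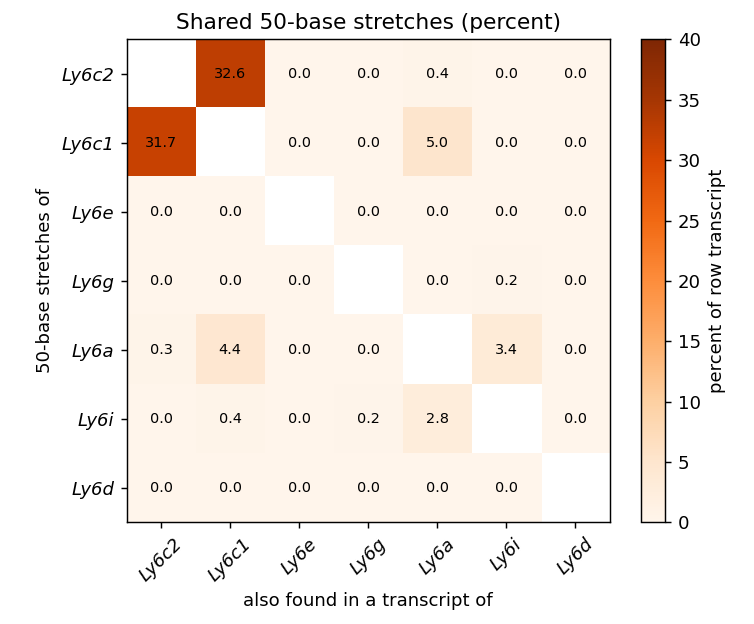
Percent of the 50-base stretches of each member's longest coding transcript (rows) that also occur in any GENCODE M21 transcript of another member (columns). Ly6c2 and Ly6c1 share 32.6% and 31.7% of their stretches, and every other pair shares 5.03% or less.

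Library totals were 24918091 and 21837261 counts in aged replicates 1 and 2, and 34278754 and 20159129 counts in young replicates 1 and 2. Levels are given as CPM, which are counts scaled to library size with TMM factors, and ± after a log2 change is its standard error. Each p-value comes from edgeR's quasi-likelihood F-test over all 12035 genes that passed the low-count filter, adjusted by Benjamini-Hochberg with a threshold of 0.05, and all 7 members were among those genes. These p-values rest on library-to-library spread, part or all of which may be technical. Among 10 monocyte markers Lyz2 was the most abundant, at 34835 and 34698 CPM in aged and 32747 and 35199 CPM in young libraries. The 13 listed neutrophil genes were abundant as well and summed to 35886 and 36554 CPM in aged and 36260 and 34977 CPM in young libraries. Of these genes S100a9 was the most abundant, and Mmp8 and Cd177 were also listed as classical monocyte genes. How much of the sum came from neutrophils was not tested.

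Of the 7 members, Ly6c2 fell and Ly6a rose in the aged libraries, and the other 5 did not pass the test. In the whole table, 2.89% of genes were called lower and 2.87% higher, 5.77% in either direction. The CPM values of the 2 ages did not overlap for any of the 7, with aged libraries below young ones for Ly6c2, Ly6c1, Ly6e and Ly6g and above them for Ly6a, Ly6i and Ly6d. The same held for 51.6% of all genes tested, so separation alone is common in this table. All 7 had an unadjusted p under 0.05, against 21.1% of all genes tested. The members were chosen with earlier results of these data known, so this contrast is not a test of the family. The median log2 change of the 7 was -0.16, against -0.0044 over all genes tested.

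**Figure D2:**
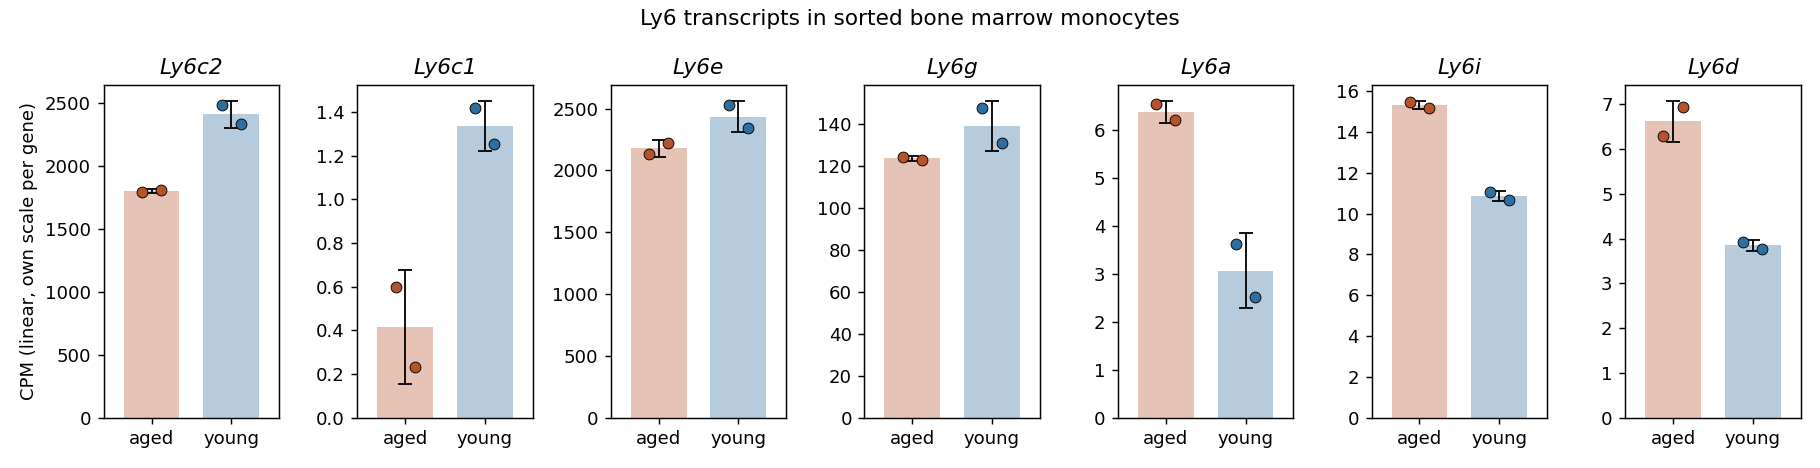
CPM (y axis, linear and starting at 0, with its own scale for each gene) of the 7 members in aged and young libraries. Bars are means, whiskers are SD and points are the 2 libraries of each age. The aged points lie below the young points for Ly6c2, Ly6c1, Ly6e and Ly6g and above them for Ly6a, Ly6i and Ly6d.

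Ly6c2 encodes the Ly6C protein of monocytes, whose surface level is high on classical and low on patrolling monocytes. It stood at 1794 and 1813 CPM in the aged libraries, against 2489 and 2337 CPM in the young ones. The aged libraries lay close together and under both young ones. The log2 change was -0.42 ± 0.052 (n = 2 per age), which is 0.748 times the young level, with an edgeR adjusted p of 0.00118. In bulk RNA, fewer cells with a transcript and less of the transcript per cell cannot be told apart. Ly6C is a common sort marker of monocytes, and whether it was part of the gate, which could set the Ly6c2 level, is not stated in the labels and was not tested. Ly6c2 was the 43rd most abundant gene in both aged libraries, and the 27th and 31st in the young ones. Ly6c2 passed the test in all 12 alternative analyses, with a log2 change between -0.47 and -0.37.

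Ly6c1 encodes a nearly identical Ly6C protein and is known from endothelial cells. It had 15 and 5 counts in the aged libraries, against 49 and 25 counts in the young ones. In CPM this was 0.598 (95% exact Poisson interval 0.335 to 0.987) and 0.230 (0.0747 to 0.537) in the aged libraries, against 1.42 (1.05 to 1.88) and 1.25 (0.812 to 1.85) in the young ones. These intervals cover counting error only. The log2 change was -1.66 ± 0.54 with an edgeR adjusted p of 0.106, so Ly6c1 did not pass. There was 1 Ly6c1 count for every 3000 and 7880 Ly6c2 counts in the aged libraries, and for every 1755 and 1863 in the young ones. Whether these few reads came from Ly6c1 transcripts or from Ly6c2 was not tested. The 9 listed endothelial genes summed to 16.9 and 17.7 CPM in aged and 18.8 and 20.7 CPM in young libraries, nearly all of it Pecam1 (14.2 and 14.4 CPM in aged, 16.9 and 18.4 CPM in young libraries). Without Pecam1 the sum was 2.71 and 3.27 CPM in aged and 1.91 and 2.36 CPM in young libraries, and the median log2 change of the 4 tested genes was 0.43. Cldn5 was at 0 in every library, and none of the 4 tested endothelial genes passed the test with edgeR, limma-voom or DESeq2, while 2 had an unadjusted p under 0.05. Their part in the Ly6c1 level was not tested.

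The stretches of 250 bases upstream are shown for Ly6c2, Ly6c1 and Ly6g, the members for which such a stretch was available. These neighbouring genes all stood lower in the aged libraries, at very different levels, and of them only Ly6c2 passed the test. The sequences are from RefSeq (GRCm38.p6), each ends just before the gene's start in that table, and each is written in the gene's own direction. Capitals mark the letters found on either strand. The search was for TATAAA, the core promoter motif bound by the TBP protein. It was also for AGGAAGT, a core bound by ETS factors. An interferon motif, GAAANNGAA, from the interferon-stimulated response element, was searched too. The last was TTCNNNGAA, the interferon-gamma activated site bound by STAT dimers.
Ly6c2, chr15:75111972-75112221, minus strand: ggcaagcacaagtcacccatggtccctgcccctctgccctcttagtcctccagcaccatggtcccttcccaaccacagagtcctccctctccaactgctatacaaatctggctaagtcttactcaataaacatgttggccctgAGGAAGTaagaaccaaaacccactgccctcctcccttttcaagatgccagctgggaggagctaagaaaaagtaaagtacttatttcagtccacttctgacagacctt
Ly6c1, chr15:75048838-75049087, minus strand: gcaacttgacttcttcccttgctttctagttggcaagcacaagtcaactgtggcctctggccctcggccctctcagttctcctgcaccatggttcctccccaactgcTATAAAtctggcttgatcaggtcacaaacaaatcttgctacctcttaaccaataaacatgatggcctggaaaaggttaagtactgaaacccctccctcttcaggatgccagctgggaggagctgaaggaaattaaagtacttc
Ly6g, chr15:75155011-75155260, plus strand: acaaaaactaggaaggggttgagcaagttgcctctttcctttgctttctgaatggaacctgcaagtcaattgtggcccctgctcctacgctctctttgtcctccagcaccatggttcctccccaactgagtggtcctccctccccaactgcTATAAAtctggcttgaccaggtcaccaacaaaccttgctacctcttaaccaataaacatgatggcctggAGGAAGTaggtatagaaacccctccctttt

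The letters TATAAA occurred once upstream of Ly6c1 and once upstream of Ly6g, and were absent from the Ly6c2 stretch. AGGAAGT occurred once upstream of Ly6c2 and once upstream of Ly6g. Neither interferon motif was found in any of the 3 stretches, and no matches overlapped. Over 27025 genes with such a stretch in the RefSeq table, TATAAA was present in 12.97%, AGGAAGT in 7.80%, GAAANNGAA in 7.16% and TTCNNNGAA in 7.18%. A match describes letters in this window and is not a binding site or a cause.

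Ly6e encodes a broadly expressed, interferon-induced member known for modifying virus entry. It was the most abundant member by counts in all 4 libraries. It stood at 2131 and 2224 CPM in the aged libraries, against 2526 and 2345 CPM in the young ones. The aged libraries were lower than both young ones, but the gap between the nearest libraries was smaller than the spread within the young pair. The log2 change was -0.16 ± 0.055 with an edgeR adjusted p of 0.118, so Ly6e did not pass.

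Ly6g encodes the surface marker of mouse neutrophils. It stood at 125 and 123 CPM in the aged libraries, against 148 and 131 CPM in the young ones. The difference from the aged level was larger in young replicate 1 than in young replicate 2. Its log2 change was -0.17 ± 0.074 with an edgeR adjusted p of 0.211, and it did not pass in any of the 12 alternatives. The shares called over all genes tested were 2.87% higher and 2.89% lower. The 13 listed neutrophil genes, all tested, moved in both directions: Ltf, Ngp and Cd177 rose, S100a8 and Cxcr2 fell, and 8 did not pass. None was at 0, S100a9 was the most abundant (7929 and 8385 CPM in aged, 9193 and 8832 CPM in young libraries), and Mmp8 and Cd177 are also held by the list of classical monocyte genes. The part of neutrophil RNA in the Ly6g level was not tested.

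**Figure D3:**
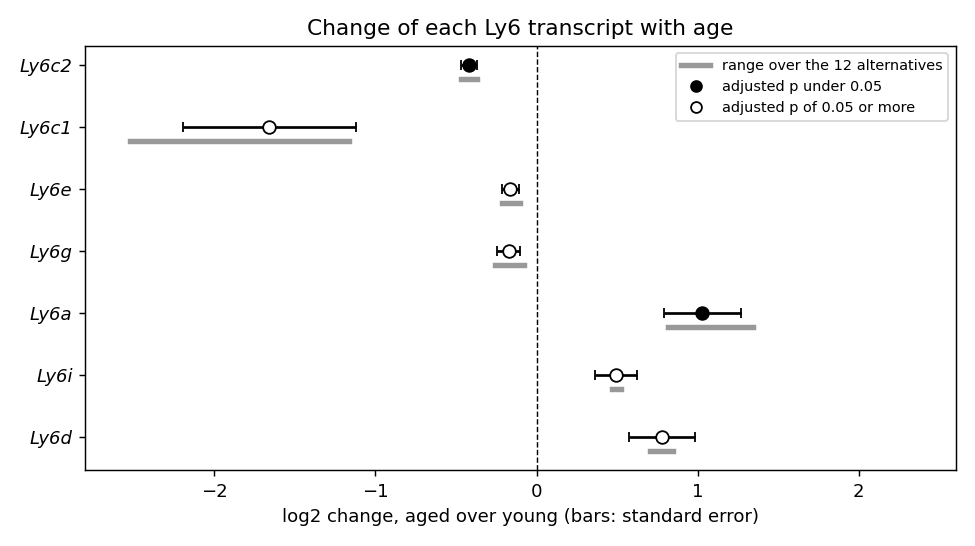
Log2 change, aged over young, of each member (x axis). Points with whiskers are the edgeR estimate and its standard error, filled where the adjusted p was under 0.05, and grey bars span the 12 alternative analyses. Ly6c2 at -0.42 and Ly6a at 1.03 are the filled points, and no grey bar crosses 0.

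Ly6a encodes Sca-1, used to isolate haematopoietic stem cells and also present on some lymphocytes and endothelial cells. It stood at 6.54 and 6.21 CPM in the aged libraries, against 3.62 and 2.51 CPM in the young ones, from 164 and 135 counts against 125 and 50. Both aged libraries lay above both young ones, and the young pair was spread more widely than the aged pair. The log2 change was 1.03 ± 0.24, a 2.04-fold higher level, with an edgeR adjusted p of 0.0326. Ly6a did not pass when either young library was left out. Its log2 change was then larger without young replicate 1 (1.35 ± 0.31) and smaller without young replicate 2 (0.82 ± 0.28). It was 0.99 without aged replicate 1 and 1.06 without aged replicate 2.

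The 10 listed stem and progenitor genes summed to 80.2 and 85.2 CPM in aged and 81.1 and 86.2 CPM in young libraries. Of the 6 tested, Flt3 rose (log2 change 0.47 ± 0.095) and Kit, the stem cell factor receptor, fell (-0.73 ± 0.15), and Mecom was at 0 in every library. Among all genes tested, 2.87% were called higher and 2.89% lower. The 12 listed T and NK cell genes summed to 51.5 and 49.4 CPM in aged and 52.0 and 58.5 CPM in young libraries, and none of the 11 tested passed the test with edgeR, limma-voom or DESeq2, while 2 had an unadjusted p under 0.05. Nkg7 carried most of that sum, and the other 11 genes summed to 18.7 and 20.3 CPM in aged and 15.2 and 17.0 CPM in young libraries. The median log2 change was 0.15 over the tested stem and progenitor genes and 0.28 over the tested T and NK cell genes. Of the B-cell transcripts, given with Ly6d, 5 of 9 tested were called higher in the aged libraries. The part of any of these cells, or of endothelial cells, in the Ly6a level was not tested.

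Ly6i encodes a close relative of Sca-1 described in mouse myeloid cells. It stood at 15.5 and 15.2 CPM in the aged libraries, against 11.1 and 10.7 CPM in the young ones. The libraries of each age were close together, and the gap between the ages was larger than the spread within either. Its log2 change was 0.49 ± 0.13, a 1.41-fold higher level, with an edgeR adjusted p of 0.0545, just short of the threshold.

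Ly6d encodes the member used to tell B-cell-biased from uncommitted lymphoid progenitors, and it is also found in the plasmacytoid dendritic cell lineage. It stood at 6.30 and 6.95 CPM in the aged libraries, against 3.94 and 3.76 CPM in the young ones. Both aged libraries were above both young ones. For Ly6d the log2 change was 0.78 ± 0.20, a 1.71-fold higher level, with an edgeR adjusted p of 0.0519, so Ly6d did not pass.

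Some, but not all, genes of the B-cell, plasmacytoid dendritic cell and plasma cell lists rose in the aged libraries. By comparison, 2.87% of all genes tested were called higher. Of 10 listed B-cell genes 9 were tested, and 5 of them rose, among them Ighm, Ighd, Cd79b and Ms4a1. Cd79a, Ebf1, Cd22 and Vpreb3 did not pass, and Pax5 was not tested. The sum of the list was 895 CPM in each aged library, against 643 and 654 CPM in the young ones, most of it Ighm, and none was at 0. Of 10 plasmacytoid dendritic cell genes 9 were tested and Spib alone rose. Of the 8 that did not pass, Klk1, Runx2 and Bst2 had negative log2 changes and the rest positive ones. That list summed to 873 and 949 CPM in aged and 745 and 845 CPM in young libraries, most of it Irf8, a gene that monocytes also use. Of 8 plasma cell genes 7 were tested and 2 rose. Sdc1 had 3.95 and 4.69 CPM in aged and 1.62 and 2.06 CPM in young libraries, and Igha had 556 and 536 counts in the aged libraries, against 0 and 1 count in the young ones. The list sum was 520 and 508 CPM in aged and 419 and 422 CPM in young libraries, most of it Xbp1, which did not pass. Without Xbp1 the sum was 70.4 and 73.2 CPM in aged and 33.8 and 35.4 CPM in young libraries. The part of these cells in the level of Ly6d was not tested.

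Per kilobase of the longest coding transcript, the order of the levels was the same at both ages. Ly6c2 was highest at 2183 and 2206 CPM per kb in aged and 3027 and 2843 CPM per kb in young libraries. Ly6e came next, at 934 and 975 CPM per kb in aged and 1107 and 1028 CPM per kb in young libraries. Ly6g followed with a mean of 132 CPM per kb in aged and 148 CPM per kb in young libraries, then Ly6i with 13.3 and 9.40, Ly6d with 8.90 and 5.17, Ly6a with 6.68 and 3.21 and Ly6c1 with 0.491 and 1.58. Within an age, the libraries of genes next to each other in this order did not overlap. The order stayed the same with the union of all exons as the length, although Ly6c2 (658 in aged, 881 in young) and Ly6e (576 in aged, 644 in young) then lay closer together.

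Together the 7 genes made up 0.410% and 0.417% of all counts in the aged libraries, against 0.522% and 0.478% in the young ones. The aged share was lower by 0.0863 percentage points, with an exact two-sided permutation p of 0.333, the smallest that 2 libraries against 2 can give. Ly6c2 and Ly6e held nearly all of these counts. Ly6c2 made up 44.0% and 43.3% of the family's counts in the aged libraries, against 48.0% and 48.4% in the young ones, and Ly6e 52.2% and 53.1% in the aged libraries, against 48.7% and 48.5%.

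Ratios to Ly6c2 within a library, which do not depend on the scaling between libraries, were higher in the aged libraries for all 5 members with at least 10 counts in every library. There was 1 Ly6a count for every 274 and 292 Ly6c2 counts in the aged libraries, against every 688 and 932 in the young ones. On the log2 scale the aged minus young difference in the ratio was 1.50 for Ly6a, 1.20 for Ly6d, 0.91 for Ly6i, 0.26 for Ly6e and 0.25 for Ly6g. For each of these the 2 ages did not overlap, and the exact two-sided permutation p was 0.333, also after adjustment over the 5 ratios, which is the smallest this design can give. The ratios share Ly6c2, whose own log2 change was -0.42, so their common direction is not 5 separate results. The differences for Ly6e and Ly6g were smaller in size than that change, and the levels of both were lower in the aged libraries.

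**Figure D4:**
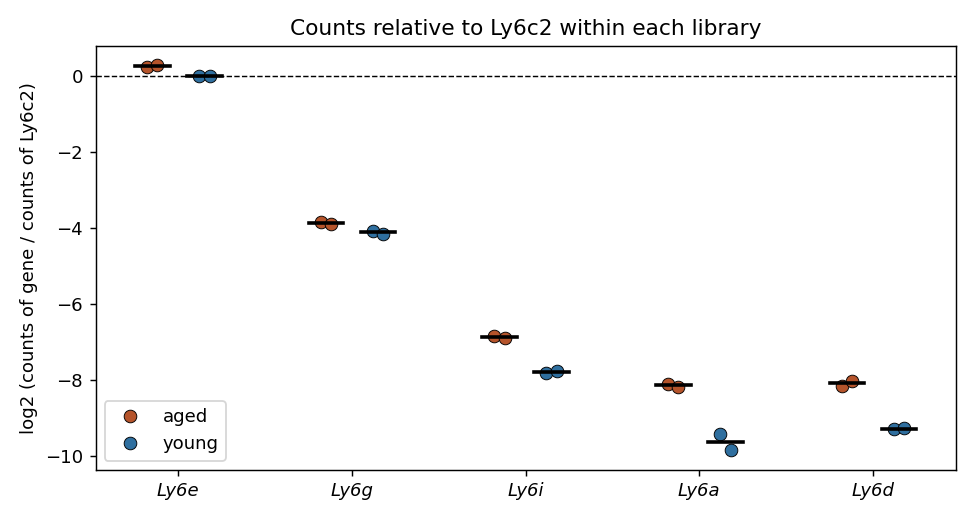
Log2 of a member's counts over the Ly6c2 counts of the same library (y axis), for aged and young libraries. Points are libraries and black lines are means of 2. The aged points lie above the young points for each of the 5 genes, by 0.25 (Ly6g) to 1.50 (Ly6a).

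Along chromosome 15 the 3 genes that stood higher in the aged libraries, Ly6d, Ly6i and Ly6a, lay at the low-coordinate end with Ly6e, which stood lower, between Ly6d and Ly6i. Ly6c1, Ly6c2 and Ly6g, which stood lower, followed. Within 200 kb on either side of the 7 genes, and between them, the tables held 23 other genes, of which 17 did not pass the low-count filter, 9 of them with 0 counts in every library. The 6 tested were Arc, Jrk, Them6, Lynx1, Gm28068 and Ly6f, and none passed the test with edgeR, limma-voom or DESeq2 or had an unadjusted p under 0.05 (0 of 6). Their log2 changes ran from -0.26 for Them6 to 0.18 for Arc. The 6 genes had few counts, from 2 to 27 per library for Arc up to 114 to 228 for Them6. Their standard errors ran from 0.22 for Them6 to 0.80 for Gm28068, so changes of the size seen for members could be missed.

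**Figure D5:**
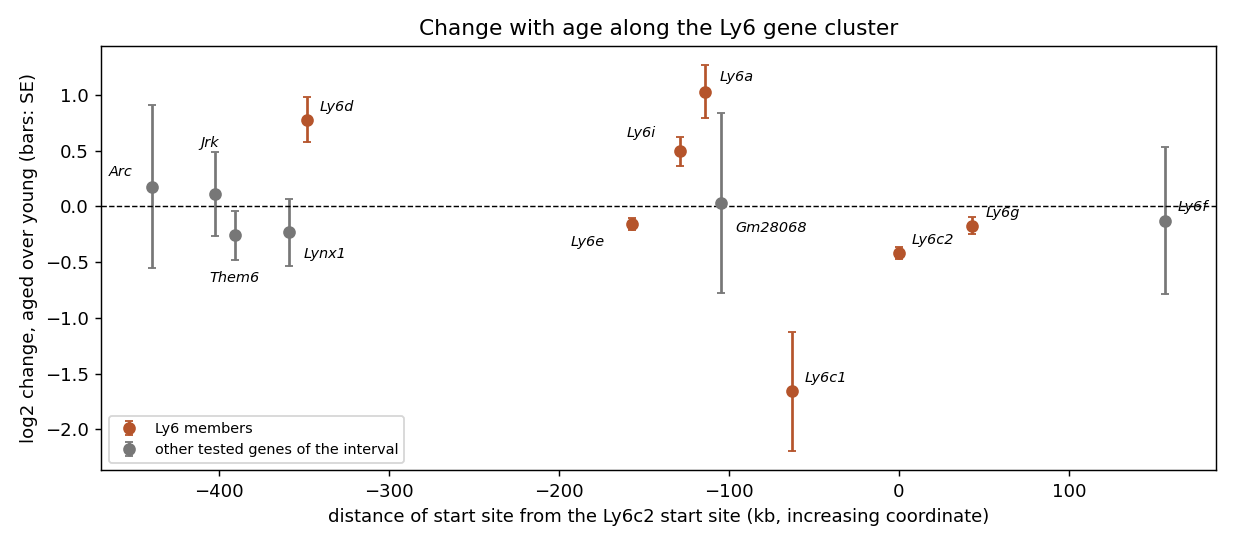
Log2 change, aged over young, with standard error (y axis) against the distance of each gene's start site from that of Ly6c2 in kb (x axis), for the 7 members and the 6 other tested genes of the interval. Ly6d, Ly6i and Ly6a lie above 0 and Ly6e, Ly6c1, Ly6c2 and Ly6g below, and the other genes lie between -0.26 and 0.18 with wide errors.

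Outside the 7, the tables held 32 genes with the same Ly6/uPAR protein fold, of which 14 had 0 counts in every library and 6 were tested. Cd177, a GPI-anchored protein of neutrophils, rose (1474 and 1538 CPM in aged, 1149 and 1206 CPM in young libraries), and so did Plaur, the urokinase receptor (log2 change 0.25 ± 0.062). None fell with edgeR, DESeq2 or limma-voom, nor at an unadjusted p under 0.05 (0 of 6). The median log2 change of the 6 was -0.14. Over all genes tested, 2.87% were called higher.

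Of 29 tested genes of the machinery that builds and attaches the GPI anchor, 1 passed the test, against 5.77% of all genes tested. Pgap1, which trims the anchor after attachment, fell to 26.4 and 19.4 CPM in the aged libraries, against 35.9 and 37.0 CPM in the young ones (log2 change -0.67 ± 0.14, edgeR adjusted p = 0.0193). The median of the list was -0.022. Of 14 tested genes for other GPI-anchored proteins of leukocytes, Cd177 and Plaur rose, against 2.87% called higher over all genes tested. The median of the 14 was 0.043. None fell with edgeR, DESeq2 or limma-voom, and 3 had a lower level at an unadjusted p under 0.05.

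Interferon-stimulated genes, the group that several Ly6 members belong to, were called lower in 4 of 43 cases with edgeR. Over all genes tested, 2.89% were called lower. The median log2 change of the list was -0.13. None was called higher with edgeR, DESeq2 or limma-voom, nor at an unadjusted p under 0.05 (0 of 43). Ifi27l2a (-0.53 ± 0.068) and Slfn1 (-0.28 ± 0.057) had the smallest p. Of the Ly6 genes, Ly6e had a log2 change of -0.16, on the same side as the median of this list, and Ly6a one of 1.03.

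Genes that mark the monocyte subsets moved beside Ly6c2, and their part in its level was not tested. Of 13 classical monocyte genes 5 fell, Ly6c2 among them, and 3 rose, with a median of -0.20. Chil3 (-0.75 ± 0.048) fell and Tmem176b (0.90 ± 0.060) and Tmem176a (0.95 ± 0.077) rose with the smallest p. Of 19 tested non-classical genes 14 rose, among them Cd36 (1.86 ± 0.11) and Adgre4 (0.92 ± 0.060), and the median was 0.74. None fell with edgeR, DESeq2 or limma-voom, nor at an unadjusted p under 0.05 (0 of 19). Spn (-0.24 ± 0.12), Cx3cr1, Itgal, Dusp16 and Cd9 did not pass. Across the whole table, 2.89% of genes tested were called lower and 2.87% higher. These lists were drawn up with earlier results of these data known.

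The profile of Ly6c2 over the 4 libraries was most like that of S100a10, an annexin partner, among 2082 named genes of at least 100 CPM. Likeness was measured as the Euclidean distance between log2 CPM values centred on each gene's mean, which was 0.019 for S100a10. Also among the 5 nearest were the ribosomal protein genes Rps3 (0.024) and Rps23 (0.033) and Sgms2, a sphingomyelin synthase (0.036). Ribosomal protein genes have processed copies in the genome, so their counts are uncertain. S100a10 stood at 254 and 259 CPM in the aged libraries, against 357 and 330 CPM in the young ones (log2 change -0.42 ± 0.060). It was picked from 2082 genes for its closeness to Ly6c2 over only 4 libraries, so its similar change is not a separate result. The nearest family members, Ly6g and Ly6e, were each at a distance of 0.26.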

How the data were processed

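RNA of FACS-isolated bone marrow monocytes was sequenced as strand-specific oligo-dT libraries, per the labels' protocols. The authors deposited 1 table of raw, whole-number counts by gene symbol for each library, with no normalization. Per the submitters' processing notes the build was mm10, and the tools listed, without roles, were HTSeq, STAR 2.5.3, DESeq2 and cutadapt. Neither the counting annotation nor the strand setting is stated in those notes.

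Symbols were matched to GENCODE M21 (30416 of 31017 matched 1 gene). Counts were filtered with filterByExpr by age (minimum count 10, minimum total 15, here a cutoff of 0.428 CPM in 2 libraries), scaled by TMM and tested with edgeR 4.0.16 in R 4.3.3 across all genes, two-sided. Ly6c1 met the filter in both young libraries and aged replicate 1. A standard error is the size of the log2 change over the square root of F. A count of 0 allows up to 3 counts, 0.0875 to 0.149 CPM by library. The 12 alternatives were DESeq2 1.42.0, limma-voom (limma 3.58.1), 3 other scalings (library size, upper quartile, RLE), 2 other filters, a block for the replicate number, and leaving out 1 library at a time. The procedure was tested on simulated data. Coding and upstream sequences were aligned with MAFFT 7.526. Replicate libraries differed beyond sampling noise (chi-square per degree of freedom 10.3 in aged, 13.4 in young pairs), and no 2 were identical.

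All 7 members are named. From each gene list up to 2 genes per direction with the smallest p are named, from each marker list the most abundant gene or those called, and by likeness genes among the 5 nearest to Ly6c2. Some genes that these rules select are not reported here. Members and lists were chosen with earlier results of these data known. The symbols Ly6g2 and Mx2 of the lists had no match in the tables.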

Additional observations from a re-analysis of the deposited data

How the results depend on the processing

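Every member kept the direction of its log2 change in all 12 alternatives. As the 2 ages did not overlap for any member, leaving out 1 library could hardly have reversed a direction. Ly6c2 passed in all of them, with adjusted p up to 0.00895. Ly6a passed in 10, and not without young replicate 1 or young replicate 2. Ly6g passed in none. Without the low-count filter, 606 of 17314 tested genes were called higher and 793 lower. In that larger set, 3 members were called higher (Ly6a, Ly6i and Ly6d) and 3 lower (Ly6c2, Ly6c1 and Ly6e). Whether libraries of the 2 ages with the same replicate number belong together is not stated. Deviations of same-numbered libraries from their age means correlated at 0.0937 across genes. With 2 libraries per age this value cannot decide the question. With the replicate number as a block, 801 of 12035 tested genes were called higher and 1016 lower. Again 3 members were called higher and 3 lower, the same 6 genes. Among them the edgeR adjusted p was 0.0109 for Ly6d, 0.0110 for Ly6i, 0.0192 for Ly6e and 0.0291 for Ly6c1. The cause of these changes was not tested.

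With each library left out in turn, genes called higher ranged from 116 to 452 and genes called lower from 81 to 588. Members called higher ranged from 0 to 2, and members called lower stayed at 1. The lowest counts of genes were those without young replicate 1, the deepest library. Without aged replicate 1, Ly6d passed (adjusted p = 0.0382). Leave-one-out values of Ly6c1 ran from -2.52 without aged replicate 1 to -1.16 without aged replicate 2. The family's share of counts was lower in aged libraries in each alternative. The shares of the 2 ages did not overlap, so leaving out 1 library could not change that direction. For the share, the block for the replicate number gives the main value by construction. The depth limits Ly6c1 most, with 5 to 49 counts per library.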
